A study of Mus musculus with 4 samples.

Results

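The integrin and laminin genes encode the main cell-surface receptors for extracellular matrix and the main glycoprotein of basement membranes. They were taken as gene families, 26 integrin subunit genes and 10 laminin chain genes, matched by symbol to the Ensembl IDs of the deposited tables. They make up 36 of the 41388 genes listed, and the rule used gene names, not measured values.

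An integrin is a pair of an alpha and a beta subunit, and the alpha subunit largely decides which matrix protein is bound. A laminin is a trimer of an alpha, a beta and a gamma chain that assembles outside the cell and, together with collagen IV, nidogen and perlecan, forms the basement membrane. In peripheral nerve the basement membrane of Schwann cells is laminin-rich, laminin receptors take part in the sorting and myelination of axons, and sensory neurons extend axons on laminin through beta1-class integrins.

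RNA was sequenced from EGFP-positive cells that were sorted by flow cytometry from dorsal root ganglia, between the segments T11 and S1, of C57BL/6 mice that report expression of the receptor tyrosine kinase gene Ret. Each of the 4 libraries (female A, male A, male B, male C) was made from the ganglia of 1 animal, 40 ganglia for the female and 20 for each male. All carried the genotype label Tg(Ret-EGFP), while the design text describes heterozygotes with EGFP inserted at the Ret locus. No reporter-free or EGFP-negative cells were among the libraries used here. All were labelled postnatal day 2 (P2). The animal that gave the pooled ganglia, however, is described as a P2 mouse in the labels of female A and male A (the P2-mouse pair) and as an embryo in those of male B and male C (the embryo pair). What the 2 descriptions stand for was not given in the sources used here, and the dissociation protocol named for all 4 is one for late embryos.

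The labels imply the comparison of the female with the 3 males. The pool descriptions imply a second one, between the 2 pairs. Gene counts summed to between 17388493 and 28066448 per library, and a floor of 3 counts lay between 0.107 and 0.173 CPM (counts scaled to the library's total of gene counts). The libraries fell into the described pairs. Over gene counts, chi-square per degree of freedom reached 11.7 within the P2-mouse pair and 25.6 within the embryo pair, against 156 to 181 for any 2 libraries of different pairs. Ret was at 31.8 and 31.6 RPKM (CPM per kilobase of exon) in female A and male A, and at 37.0 and 32.7 RPKM in male B and male C. The sensory neuron markers Tubb3, Prph, Avil and Scn10a were each at 102 RPKM or more in every library, so markers of the labelled tissue were present in all 4.

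Integrin and laminin RNA was led by a few genes. A mean of at least 1 RPKM over the 4 libraries was reached by 14 of the 36 members, 9 of 26 integrins and 5 of 10 laminins, and a mean of at least 5 RPKM by 9 members. In order of mean RPKM these 9 were Itgb1, Lamb1, Lamc1, Itga7, Itga6, Lama4, Itga3, Itgb8 and Lama2, at 104, 25.6, 14.6, 13.1, 12.0, 9.75, 7.18, 6.44 and 5.31 RPKM. The spread between the pairs was wider than most steps of this order. Itga6 and Itga7, for example, changed places between the pairs.

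**Figure D1:**
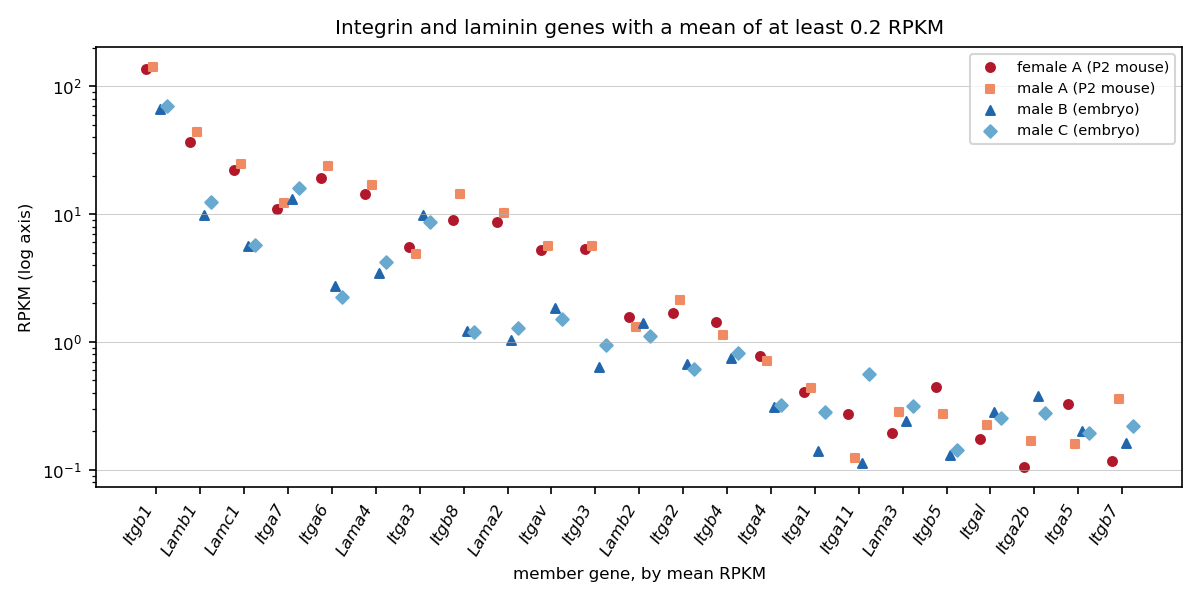
RPKM on a log axis of the 23 members with a mean of at least 0.2 RPKM, in order of their mean, with 1 point for each of the 4 libraries. Itgb1 leads in every library, and for most members from Lamb1 to Itgb3 the 2 libraries of the P2-mouse pair stand together above the 2 of the embryo pair; Itga7 and Itga3 run the other way.

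Between the pairs, 28 of the 36 members had enough counts to be tested, and 11 rose and 2 fell in the P2-mouse pair. The risers were the beta subunits Itgb1, Itgb3 and Itgb8, the alpha subunits Itga2, Itga4, Itga6 and Itgav, and the laminin chains Lama2, Lama4, Lamb1 and Lamc1. Itga3 and Itga7, both alpha subunits of laminin receptors, fell. The rises reached a log2 fold change of 3.16, about 8.92-fold, in Itgb8. The test was edgeR's quasi-likelihood F test with Benjamini-Hochberg adjustment over 15568 genes at 0.05. It called 42.3% of all genes tested, 22.3% higher and 20.0% lower, against 39.3% of tested members higher and 7.14% lower. The median log2 fold change was 0.57 over the tested members and 0.02 over all genes tested. A call with a log2 fold change of at least 1 was made for 10 of the 28 tested members and for 11.6% of all genes tested. A call with a log2 fold change of at least 2.5 was made for 4 of the 28 and for 1.64% of all genes. These 4 were Itgb8, Itga6, Lama2 and Itgb3. A call with a log2 fold change of −0.9 or less was made for 1 of the 28, Itga3, and for 8.16% of all genes. The cutoffs of 2.5 and −0.9 lie close to members' own values, Itgb3 at 2.67 and Itga3 at −0.94. Only the cutoff of 1 was also a rule for naming members, so the counts at the other cutoffs are description only.

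The members not called were 15 of those tested. The other 8, Itga10, Itgad, Itgae, Itgam, Itgax, Itgb2, Lama5 and Lamb3, had too few counts to test. Over all 36 members, the values of the pairs did not overlap for 19, with the P2-mouse pair higher in 15 and lower in 4. Among all genes tested the P2-mouse pair stood wholly above the embryo pair in 36.9% and wholly below it in 36.4%. These shares leave out untested genes, while the 15 members include the untested Lama5. The p-values measure the spread between 2 libraries in each pair, each from 1 animal.

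Fold changes between the pairs went with base composition and length across all genes. Over 15474 genes, which are not independent of each other, Spearman's rho of the log2 fold change was −0.44 with the GC content and 0.27 with the length of the longest annotated transcript. With offsets for GC content and length in the fit, 9 members rose and 1 fell, against 12.4% higher and 20.9% lower (33.3% in all) of genes tested. The median log2 fold change was then 0.29 over the members and −0.08 over all genes. Itga2, Itga4 and Itga7 lost their calls. Values with offsets are given beside some of the genes, and a gene without one may also have moved.

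**Figure D2:**
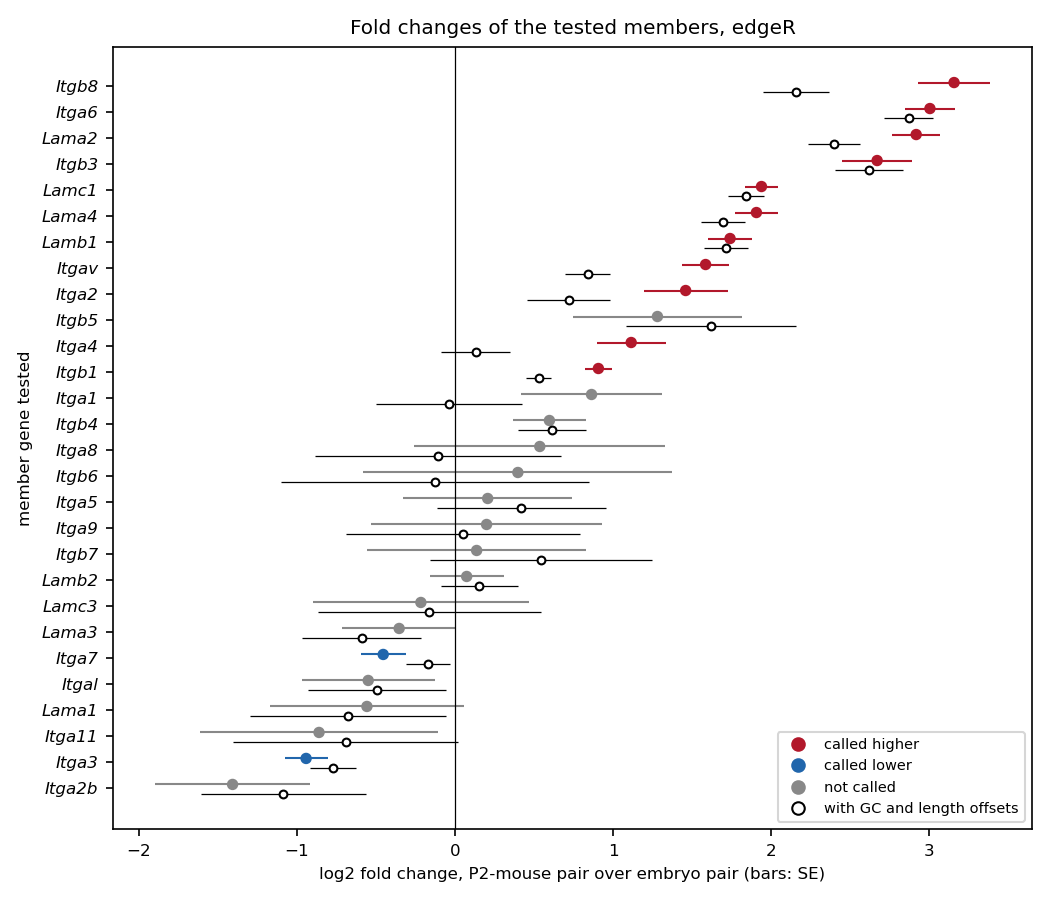
Log2 fold change of the P2-mouse pair over the embryo pair for each of the 28 tested members, with bars of 1 SE from edgeR; filled points are the fit as counted and open points the fit with GC and length offsets. Itgb8, Itga6, Lama2 and Itgb3 lie above 2 in both fits, while Itga4 moves to near 0 and Itga7 to −0.17 with offsets.

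The laminin-binding alpha subunits changed in opposite directions. Itga6 pairs with Itgb1 or Itgb4 as a laminin receptor of Schwann cells, epithelia and neurons. The gene lies on the plus strand at chr2:71745616-71858416 of GRCm38. Itga6 was at 19.2 and 24.0 RPKM in female A and male A, against 2.72 and 2.26 RPKM in male B and male C. Both libraries of the P2-mouse pair were above both of the embryo pair. The log2 fold change was 3.00 (SE 0.16, adjusted p = 0.000105 by edgeR's quasi-likelihood test), and 2.87 with offsets.

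Itga7, a laminin-binding subunit best known from skeletal muscle, was at 10.9 and 12.2 RPKM in female A and male A, against 13.1 and 16.0 RPKM in male B and male C. The pairs did not overlap, but the nearest values, those of male A and male B, were close together. The fall of 0.45 on the log2 scale (SE 0.14) passed narrowly, with an adjusted p of 0.0363 by edgeR. It did not hold with offsets (adjusted p = 0.374), with sex as a term (adjusted p = 0.215), or without female A (0.211), male A (0.0927) or male C (0.0776).

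Itga3, a subunit that also pairs with Itgb1 as a laminin receptor, was at 5.50 and 4.84 RPKM in female A and male A, against 9.77 and 8.62 RPKM in male B and male C. The embryo pair was higher throughout. Itga3 fell by 0.94 on the log2 scale (SE 0.14, adjusted p = 0.00131 by edgeR), and by 0.77 with offsets.

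Through these changes the makeup of the alpha subunits differed between the pairs. Itga6 made up 42.8% and 46.7% of the summed RPKM of the 18 alpha subunits in female A and male A, against 9.12% and 7.22% in male B and male C. Itga7 made up 24.3% and 23.7% in female A and male A, against 44.1% and 51.2% in male B and male C. For Itga3 the shares were 12.3% and 9.42% in the P2-mouse libraries, against 32.8% and 27.5% in the embryo libraries. The 3 together held between 79.4% and 86.0% of the alpha subunit RPKM in every library. The ratio of Itga6 to Itga7 was 1.76 and 1.97 in female A and male A, against 0.207 and 0.141 in male B and male C, so Itga6 was the leading alpha subunit in one pair and Itga7 in the other. These shares are of RPKM and have no test of their own.

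**Figure D3:**
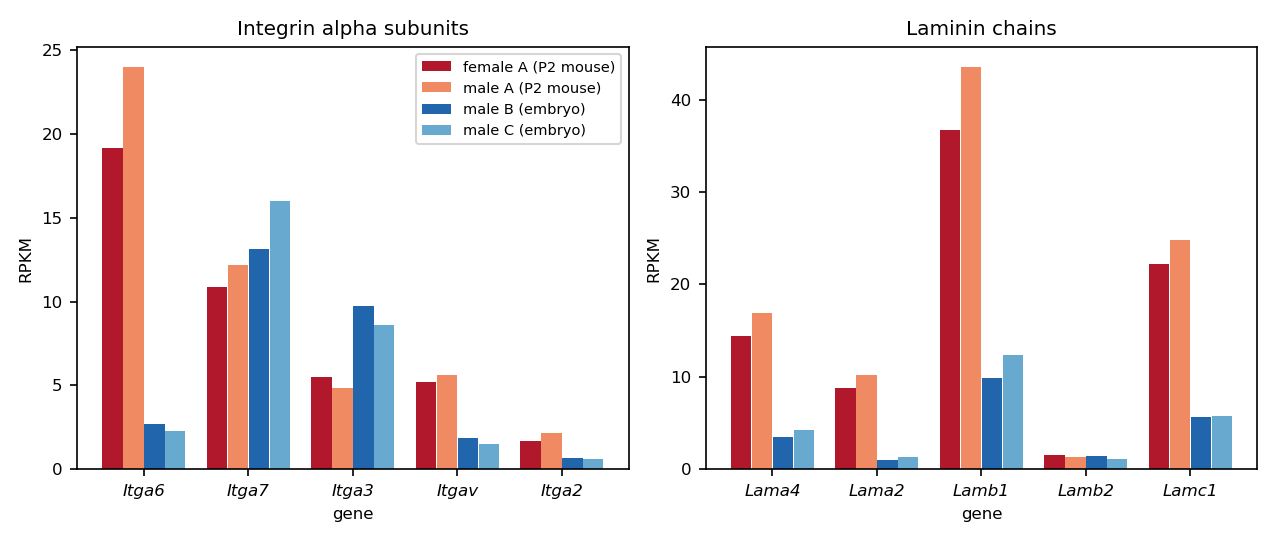
RPKM, on linear axes from 0, of the 5 leading integrin alpha subunits (left) and of the 5 leading laminin chains (right), with 1 bar for each library. Itga6 is the tallest alpha subunit in the P2-mouse libraries and Itga7 in the embryo libraries, while Lamb1 is the tallest laminin chain in all 4 libraries.

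The collagen- and laminin-binding alpha subunits were low. Itga2, known as the collagen receptor of platelets, was at 1.69 and 2.13 RPKM in female A and male A, against 0.670 and 0.610 RPKM in male B and male C. Its log2 fold change was 1.46 (SE 0.27, adjusted p = 0.00373 by edgeR). It was 0.72 with offsets, with an adjusted p of 0.0679. Itga1, a collagen and laminin receptor subunit, was not called. It lay at 0.405 and 0.432 RPKM in female A and male A and at 0.140 and 0.282 RPKM in male B and male C, with an adjusted p of 0.159 by edgeR. The log2 fold change of Itga1 was 0.86, and −0.04 with offsets. Itga11, a collagen receptor subunit of fibroblasts, ranged from 0.123 to 0.271 RPKM in the P2-mouse pair and from 0.112 to 0.564 RPKM in the embryo pair, and the pairs overlapped. Itga10, a collagen receptor subunit of cartilage, stayed at or under 0.0618 RPKM.

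Among the alpha subunits that bind the RGD tripeptide of fibronectin and vitronectin, Itgav alone was above 1 RPKM. Itgav was at 5.20 and 5.63 RPKM in female A and male A, against 1.84 and 1.499 RPKM in male B and male C, with no overlap. Its log2 fold change was 1.58 (SE 0.15, adjusted p = 0.000268 by edgeR), and 0.84 with offsets (adjusted p = 0.00300). An antisense gene model, Gm13684, covers 5.90% of its exon bases, and the strand setting of the counting was not given in the sources used here.

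Itga5, the classical fibronectin receptor subunit, was at 0.325 and 0.158 RPKM in female A and male A and at 0.201 and 0.193 RPKM in male B and male C. The pairs overlapped. Itga8, known from kidney development, lay between 0.0441 and 0.229 RPKM, and its counts were 9 and 29 in female A and male A against 11 and 18 in male B and male C. The antisense gene model E030013I19Rik covers 5.07% of the Itga8 exon bases. Itga2b, the platelet fibrinogen receptor subunit, had 16 and 16 counts in female A and male A against 47 and 38 in male B and male C. The log2 fold change of Itga2b was −1.41 with an adjusted p of 0.0522 by edgeR, just short of the threshold, and over the alternatives run its adjusted p lay between 0.0228 and 0.536.

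The subunits Itga4 and Itga9 bind fibronectin variants, Vcam1 or tenascin rather than the RGD site. Itga4 was at 0.775 and 0.704 RPKM in female A and male A, against 0.309 and 0.322 RPKM in male B and male C. It rose by a log2 fold change of 1.11 (SE 0.22, adjusted p = 0.00501 by edgeR), but the value was 0.13 with offsets (adjusted p = 0.684) and the call was lost with sex as a term (adjusted p = 0.0524). Cerkl on the opposite strand shares 8.04% of the Itga4 exon bases. Itga9 was at 0.0556 and 0.209 RPKM in female A and male A and at 0.0688 and 0.136 RPKM in male B and male C, and was not called.

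The leukocyte integrins were low, each with at most 41 counts in a library. The alpha subunits Itgad, Itgae, Itgal, Itgam and Itgax and the beta subunits Itgb2 and Itgb7 are expressed mainly by white blood cells. Their summed RPKM was 0.449 and 1.08 in female A and male A and 0.506 and 0.661 in male B and male C, so the pairs overlapped. None of the 7 was called between the pairs, and only Itgal and Itgb7 could be tested. Itgb2, the common beta subunit of this class, had 2 and 7 counts in female A and male A and 0 and 5 in male B and male C. Itgax, a dendritic cell marker, had 1 count in female A and 0 in the other 3 libraries, where a count of 0 allows up to 0.173 CPM in male A. Of the 9 macrophage and leukocyte markers listed, Ptprc was at or under 0.0680 RPKM in every library. Others on that list were higher, with Fcer1g between 5.32 and 8.84 RPKM and Laptm5 between 2.32 and 2.75 RPKM.

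Itgb1, the partner of most matrix-binding alpha subunits, was the most abundant member. It lies on the plus strand at chr8:128685654-128733200 of GRCm38. Itgb1 was at 136 and 142 RPKM in female A and male A, against 67.1 and 69.9 RPKM in male B and male C. Within each pair the values nearly coincided, and the pairs were far apart. The log2 fold change was 0.91 (SE 0.08, adjusted p = 0.000249 by edgeR), and 0.53 with offsets (adjusted p = 0.00189). Itgb1 made up 89.2% and 86.6% of the RPKM of all 8 beta subunits in female A and male A, against 95.7% and 95.3% in male B and male C.

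Itgb8, which with Itgav activates latent TGF-beta, was at 8.98 and 14.3 RPKM in female A and male A, against 1.21 and 1.21 RPKM in male B and male C. The difference between the libraries of the P2-mouse pair was smaller than the gap to the embryo pair. Its log2 fold change was 3.16 (SE 0.23, adjusted p = 0.000141 by edgeR), and 2.16 with offsets.

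Itgb3, which pairs with Itgav as a vitronectin receptor and with Itga2b on platelets, was at 5.31 and 5.62 RPKM in female A and male A, against 0.635 and 0.946 RPKM in male B and male C. The pairs did not overlap. The log2 fold change was 2.67 (SE 0.22, adjusted p = 0.000191 by edgeR), and 2.62 with offsets. Its platelet partner Itga2b was not called. The 6 platelet markers summed to 0.953 and 2.72 RPKM in female A and male A and to 1.47 and 1.34 RPKM in male B and male C, with Gp9 at 0 in all 4 libraries. These sums rest on few counts, with Pf4 at 3 and 19 in female A and male A, and the source of the Itgb3 RNA was not tested.

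Itgb4, which pairs with Itga6 in epithelia and in myelinating Schwann cells, was at 1.44 and 1.12 RPKM in female A and male A, against 0.755 and 0.813 RPKM in male B and male C. The pairs did not overlap, yet the log2 fold change of 0.60 (SE 0.23) did not pass, with an adjusted p of 0.0729 by edgeR and a range over the alternatives of 0.0565 to 0.356. The opposite strand gene model B230344G16Rik shares 7.66% of its exon bases. Itgb5, a further partner of Itgav, was at 0.445 and 0.274 RPKM in female A and male A, against 0.131 and 0.143 RPKM in male B and male C. Its log2 fold change of 1.28 (SE 0.54) did not pass either (adjusted p = 0.0917 by edgeR). Itgb6, an epithelial subunit, had 34 and 2 counts in female A and male A and 18 and 5 in male B and male C, and the pairs overlapped.

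All 3 laminin chain types had a leading gene that rose in the P2-mouse pair, and no laminin gene fell. Of 8 laminin genes tested, 4 rose, against 22.3% of all genes tested. Lama4 and Lama2 are the alpha chains of the basement membranes of blood vessels, muscle and peripheral nerve. Lama4 was at 14.4 and 16.9 RPKM in female A and male A, against 3.48 and 4.23 RPKM in male B and male C. The log2 fold change of Lama4 was 1.91 (SE 0.14, adjusted p = 0.000141 by edgeR), and the pairs did not overlap.

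Lama2, whose loss causes a congenital muscular dystrophy with a neuropathy, was at 8.74 and 10.2 RPKM in female A and male A, against 1.03 and 1.29 RPKM in male B and male C. The pairs stood well apart. The log2 fold change was 2.92 (SE 0.15, adjusted p = 0.000105 by edgeR), and 2.40 with offsets. Lama4 made up 61.5% of the RPKM of the 5 alpha chains in both female A and male A, against 71.9% in both male B and male C, and Lama2 made up 37.3% and 37.1% in the P2-mouse libraries against 21.2% and 21.8% in the embryo libraries.

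The other alpha chains were scarce. Lama1, the chain of the early embryonic laminin, stayed between 0.0422 and 0.0834 RPKM. Lama3, the epithelial chain, was at 0.192 and 0.284 RPKM in female A and male A and at 0.242 and 0.314 RPKM in male B and male C. Lama5, a widespread chain of mature basement membranes, had 13 and 7 counts in female A and male A against 2 and 4 counts in male B and male C, too few to be tested. None of these 3 was called.

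Lamb1 and Lamc1 are the common beta and gamma chains. Lamb1 was at 36.8 and 43.5 RPKM in female A and male A, against 9.86 and 12.4 RPKM in male B and male C. The log2 fold change of Lamb1 was 1.74 (SE 0.14, adjusted p = 0.000169 by edgeR), and 1.72 with offsets. Lamc1 was at 22.2 and 24.8 RPKM in female A and male A, against 5.62 and 5.70 RPKM in male B and male C. Both genes were well above the embryo pair in both P2-mouse libraries. The log2 fold change of Lamc1 was 1.94 (SE 0.11, adjusted p = 0.000105 by edgeR), and 1.84 with offsets.

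Lamb2, the beta chain of synaptic and mature basement membranes, was at 1.55 and 1.30 RPKM in female A and male A and at 1.404 and 1.11 RPKM in male B and male C. The pairs overlapped, with a log2 fold change of 0.07 (SE 0.23, adjusted p = 0.825 by edgeR) that had no fixed sign over the alternatives. The ratio of Lamb1 to Lamb2 was 23.7 and 33.5 in female A and male A, against 7.02 and 11.2 in male B and male C. Lamb3, an epithelial chain, had 0 and 2 counts in female A and male A and 2 and 1 in male B and male C. Lamc3, a minor gamma chain, stayed between 0.0396 and 0.109 RPKM, and the pairs overlapped.

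Summed by chain type, the laminin alpha, beta and gamma genes gave 23.4, 38.3 and 22.2 RPKM in female A and 27.4, 44.9 and 24.8 RPKM in male A. The sums were 4.84, 11.3 and 5.73 RPKM in male B and 5.89, 13.5 and 5.74 RPKM in male C. The beta sum was the largest of the 3 in each library. The alpha and gamma sums lay close to each other in all 4 libraries.

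Since several members moved together, the 200 bases upstream of their transcription starts are shown for 4 of the members that rose or fell and have an entry in the RefSeq promoter table (GRCm38.p6), for Itgb1 as the most abundant member and for Lamb2, which was not called, beside Lamb1. The windows are Itgb1 at chr8:128685454-128685653 on the plus strand, Itgb8 at chr12:119238277-119238476 on the minus strand, Lama2 at chr10:27616943-27617142 on the minus strand, Lamb1 at chr12:31265093-31265292 on the plus strand, Itga3 at chr11:95076715-95076914 on the minus strand and Lamb2 at chr9:108479662-108479861 on the plus strand. Each is written 5′ to 3′ on the strand of its gene, and capitals mark the GC box GGGCGG or its reverse complement CCGCCC.
Itgb1: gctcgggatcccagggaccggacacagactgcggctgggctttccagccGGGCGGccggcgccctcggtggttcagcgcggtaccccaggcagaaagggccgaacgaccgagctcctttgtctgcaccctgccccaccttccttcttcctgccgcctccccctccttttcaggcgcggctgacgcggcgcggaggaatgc
Itgb8: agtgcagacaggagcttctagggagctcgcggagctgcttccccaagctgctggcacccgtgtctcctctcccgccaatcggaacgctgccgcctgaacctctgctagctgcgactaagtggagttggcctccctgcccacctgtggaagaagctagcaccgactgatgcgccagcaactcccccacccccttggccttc
Lama2: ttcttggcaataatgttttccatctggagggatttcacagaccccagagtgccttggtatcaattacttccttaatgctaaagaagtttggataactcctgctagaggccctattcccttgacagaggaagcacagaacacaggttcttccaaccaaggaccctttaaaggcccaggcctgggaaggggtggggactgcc
Lamb1: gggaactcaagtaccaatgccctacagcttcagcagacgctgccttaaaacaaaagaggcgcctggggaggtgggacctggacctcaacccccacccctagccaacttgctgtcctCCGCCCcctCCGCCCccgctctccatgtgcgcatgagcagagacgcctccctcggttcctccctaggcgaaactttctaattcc
Itga3: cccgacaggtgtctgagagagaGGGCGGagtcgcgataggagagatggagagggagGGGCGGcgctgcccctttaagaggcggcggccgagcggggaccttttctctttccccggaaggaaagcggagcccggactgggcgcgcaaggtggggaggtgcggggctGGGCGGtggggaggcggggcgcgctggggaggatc
Lamb2: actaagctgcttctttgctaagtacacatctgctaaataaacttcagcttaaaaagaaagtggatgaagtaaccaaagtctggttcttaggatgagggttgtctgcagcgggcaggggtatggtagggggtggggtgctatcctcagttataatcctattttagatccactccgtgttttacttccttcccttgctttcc

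The windows differ in base makeup. Itgb1 and Itga3 hold 20 CpG dinucleotides each and Itgb8 holds 10, while Lama2 holds 0 and Lamb2 holds 2, against a median of 5 over all 32851 windows. The GC box is found 3 times for Itga3, 2 times for Lamb1 and 1 time for Itgb1, and not for Itgb8, Lama2 or Lamb2. It was present in 8 of 26 windows of the 23 members with an entry and in 31.05% of all windows. The letters CCAAT, on either strand, were in 4 of the 26 and in 29.35% of all windows. The AP-1 motif TGANTCA was in 1 of the 26 windows and in 5.479% of all, on either strand. The TEAD motif GGAATG was in 3 of the 26 and in 10.11% of all, on either strand. The TATA box letters TATAAA were in 0 of the 26 and in 9.96% of all, on either strand. For Itgb8, Lama2, Lamb1 and Itga3 the RefSeq start lies downstream of the outermost GENCODE start, so these windows reach into or lie within the annotated gene, and Itga3 has a second start in the table that is not shown. The GC box letters thus occurred upstream of a gene that fell, Itga3, and of genes that rose, Itgb1 and Lamb1.

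The matrix proteins that assemble with laminins mostly moved the same way. Of 11 basement membrane partners, 8 rose and 1 fell, against 22.3% higher and 20.0% lower of all genes tested. The median log2 fold change was 0.96 over the 11. Sparc, a collagen-binding matricellular protein, was the most abundant, at 332 and 389 RPKM in female A and male A, against 144 and 159 RPKM in male B and male C (log2 fold change 1.13, SE 0.11). Nid1 and Nid2 encode the nidogens that link laminin to collagen IV. Their log2 fold changes were 1.38 (SE 0.11) for Nid1 and 2.34 (SE 0.21) for Nid2. Hspg2, which encodes perlecan, rose by 1.94 (SE 0.21) on the log2 scale, the collagen IV gene Col4a1 by 0.96 (SE 0.11) and Col18a1 by 1.43 (SE 0.25). Tinagl1, a matricellular gene, was at 0.303 and 0.317 RPKM in female A and male A, against 0.779 and 0.581 RPKM in male B and male C, and fell by 1.25 on the log2 scale (SE 0.38). The Tinagl1 call did not hold with offsets (adjusted p = 0.139 by edgeR), where 8 partners rose and 0 fell, nor without female A (0.145), male A (0.121) or male B (0.111).

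Ligands of integrins other than laminins were mixed. Of 15 listed, 6 rose and 3 fell, against 22.3% higher and 20.0% lower of all genes tested. The median log2 fold change was 0.79. Thbs2, a thrombospondin, was at 11.3 and 11.8 RPKM in female A and male A, against 1.27 and 1.73 RPKM in male B and male C (log2 fold change 2.82, SE 0.18). Vcam1, a ligand of the integrin with Itga4, fell by 1.77 (SE 0.24) on the log2 scale, and by 2.49 with offsets. Spp1, which encodes osteopontin, fell by 1.41 (SE 0.31). L1cam, a neuronal adhesion molecule that also binds RGD-type integrins, was at 45.4 and 40.3 RPKM in female A and male A, against 49.1 and 58.2 RPKM in male B and male C, and fell by 0.44 (SE 0.11). By edgeR the L1cam call was lost without female A (adjusted p = 0.0535) or male A (0.139), and the Spp1 call without female A (0.0661).

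Ccn1, a secreted matricellular ligand of Itgav integrins, was at 50.9 and 75.7 RPKM in female A and male A, against 12.0 and 34.9 RPKM in male B and male C. Its log2 fold change of 1.32 (SE 0.43) passed with an adjusted p of 0.0410 by edgeR, but not without female A (0.0717) or male A (0.236), nor with DESeq2 (0.161). The pairs did not overlap, though the embryo libraries differed widely. Fn1, which encodes fibronectin, was at or under 0.665 RPKM in all libraries and had a log2 fold change of 0.97 (SE 0.27), a call lost with female A (adjusted p = 0.167), male A (0.0511) or male C (0.0515) left out. Edil3, a secreted RGD protein, rose by 0.90 (SE 0.09) on the log2 scale and had a value of −0.06 (SE 0.09) with offsets.

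The list of laminin receptors that are not integrins also held Dmd, Utrn and sarcoglycan genes, which are not themselves laminin receptors. Of its 9 genes 8 were tested. Of these 5 rose and 1 fell, against 22.3% higher and 20.0% lower of all genes tested, with a median log2 fold change of 1.16. With offsets 3 rose and 2 fell, against 12.4% and 20.9% of genes tested. Among the receptors themselves Dag1 rose, Bcam fell and Rpsa was not called (log2 fold change −0.06, SE 0.23). Dag1 encodes dystroglycan, which binds laminin and, through Dmd and Utrn products, the cytoskeleton. Dag1 was at 12.3 and 13.6 RPKM in female A and male A, against 4.70 and 4.98 RPKM in male B and male C (log2 fold change 1.30, SE 0.13), and the pairs did not overlap. Dmd rose by 2.55 (SE 0.17) on the log2 scale, a value of 1.5 with offsets. The sarcoglycan gene Sgcd rose by 1.37 (SE 0.28), a value of 0.48 with offsets (adjusted p = 0.201 by edgeR). Sgcb, the most abundant sarcoglycan gene, was at 67.3 and 70.3 RPKM in female A and male A, against 20.9 and 41.1 RPKM in male B and male C. Its log2 fold change was 1.03 (SE 0.26), and the call was lost without female A (adjusted p = 0.0697), without male A (0.0988), with offsets (0.100) and with DESeq2 (0.0602). The Sgcd call was also lost without male A (adjusted p = 0.0655 by edgeR). Sgce, at 16.64 to 18.54 RPKM in all libraries, was not called (log2 fold change −0.01, SE 0.11) but fell by 0.86 with offsets. Bcam, a receptor for laminins with the Lama5 chain, was at 8.73 and 7.78 RPKM in female A and male A, against 20.9 and 25.3 RPKM in male B and male C, and fell by 1.60 (SE 0.14).

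The proteins that link integrins to actin had no common direction. Of 25 listed genes 22 were tested, and their median log2 fold change was −0.00. Of the 22, 8 rose and 5 fell, against 22.3% higher and 20.0% lower of all genes tested. Parvb, an actin-binding partner of the integrin-linked kinase, fell by 0.97 (SE 0.11), while Lims1 of the same complex rose by 1.00 (SE 0.12), a value of 0.29 with offsets (adjusted p = 0.0722 by edgeR). Pxn, which encodes paxillin, rose by 1.71 (SE 0.31) on the log2 scale and Tns3 by 1.29 (SE 0.20). The small GTPase gene Rap1a rose by 1.60 (SE 0.15), a value of 0.95 with offsets. Rap1b, its more abundant paralog, rose by 0.54 (SE 0.10) and was at −0.06 with offsets. Tln1, which encodes the integrin activator talin, fell by 0.45 (SE 0.12), and Actn1, an alpha-actinin gene, by 0.67 (SE 0.13). By edgeR the Tln1 call was lost without female A (adjusted p = 0.106) or male A (0.0961), and the Actn1 call without male A (0.0601).

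Genes of other cell types moved between the pairs as well. The counts for the marker lists below stand against 22.3% higher and 20.0% lower of all genes tested. The sort used EGFP, yet the 12 Schwann cell markers summed to 1807 and 2857 RPKM in female A and male A, against 1199 and 1191 RPKM in male B and male C, and 10 of the 12 rose and 0 fell. Pmp22 held most of these sums. Egr2 and Prx, which mark myelinating Schwann cells, were at 27.6 and 16.5 RPKM in female A and at 40.4 and 24.4 RPKM in male A, against 2.54 and 2.19 RPKM in male B and 4.63 and 3.17 RPKM in male C. The 9 fibroblast markers summed to 226 and 240 RPKM in the P2-mouse pair, against 93.7 and 97.3 RPKM in the embryo pair, with 5 higher and 1 lower. The 8 endothelial markers summed to 4.69 and 2.39 RPKM in female A and male A, against 1.21 and 0.974 RPKM in male B and male C, with 5 higher (0 with sex as a term) and Tek at 0 in male C.

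The 7 satellite glia markers were mixed, with 3 higher and 2 lower and sums of 222 and 202 RPKM in female A and male A against 234 and 413 RPKM in male B and male C. The 6 mural cell markers summed to between 18.96 and 21.09 RPKM in all libraries, with 1 higher and 1 lower. The 6 erythroid markers summed to 53.4 and 68.9 RPKM in the P2-mouse pair, against 19.6 and 6.42 RPKM in the embryo pair, with 3 higher. The 9 macrophage and leukocyte markers summed to 12.2 and 13.9 RPKM in the P2-mouse pair and 11.3 and 8.99 RPKM in the embryo pair, none of them called. The 6 epithelial markers, nearly all from Cdh1, summed to 25.0 and 30.7 RPKM in the P2-mouse pair and to 30.4 and 34.6 RPKM in the embryo pair, with Krt5 at 0 in all libraries.

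The 10 sensory neuron markers summed to 2962 and 2757 RPKM in female A and male A, against 5592 and 5284 RPKM in male B and male C, with 7 lower and 0 higher. The sums of the Schwann cell, fibroblast, endothelial and erythroid lists were thus higher in the P2-mouse pair, as were the rising integrins and laminins, and that of the neuron list was lower, and the part of each in those rises was not tested. In bulk RNA of sorted cells, a change in the number of cells of a type and a change of RNA per cell cannot be told apart. Age, library preparation or any other factor that goes with the pool description cannot be told apart from it either.

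**Figure D4:**
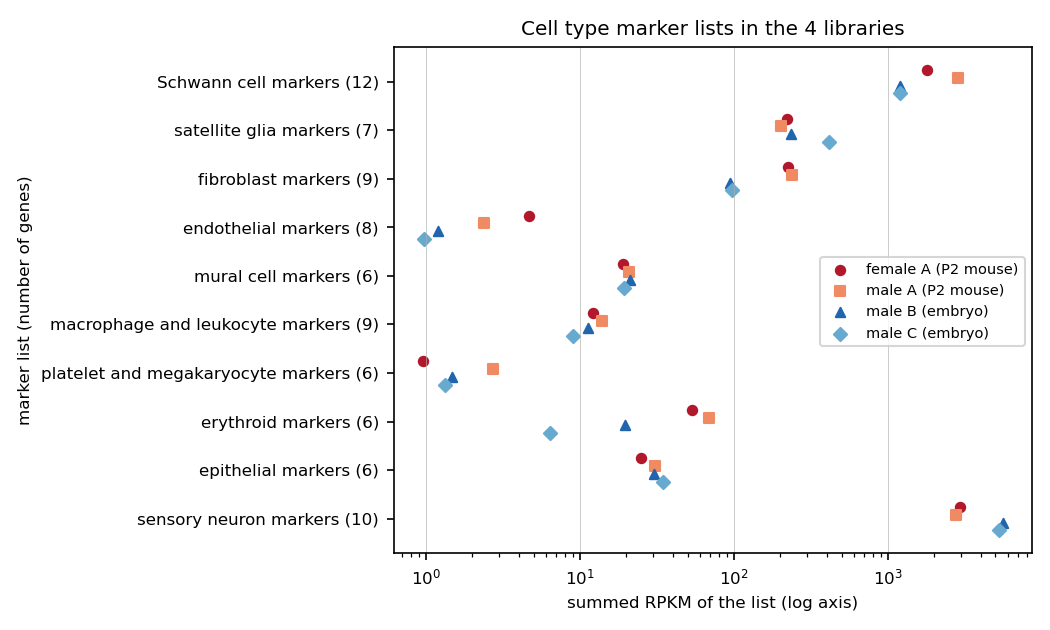
Summed RPKM, on a log axis, of the 10 marker lists in each of the 4 libraries, with the number of genes per list in parentheses. The Schwann cell, fibroblast, endothelial and erythroid sums are higher in both P2-mouse libraries and the sensory neuron sums are lower, while mural cell sums lie between 18.96 and 21.09 RPKM.

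Between the female and the 3 males no member was called. With 1 female library, the test assumed that the female varies like the males. By edgeR's quasi-likelihood test 0 of 16708 genes passed at 0.05 after Benjamini-Hochberg adjustment (0% of genes tested), and 129 had an unadjusted p under 0.05. Of the 36 members 30 were tested and 0 passed, as with DESeq2 and limma-voom. Outside the members, DESeq2 and some of the alternative edgeR fits did call genes in this comparison. The lack of calls across all genes thus holds for the main edgeR fit and not for every setting. Female A stood above all 3 males in 10 members and below all 3 in 8, against 22.1% and 22.0% of all genes tested. The 10 include the untested Itga10, Itgad and Itgax, and the 8 include the untested Lamb3.

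The log2 fold changes of the female over the males had large errors, since the spread among the males holds the difference between male A and the other 2. Itga6 had 0.95 (SE 1.23) and Lama2 1.03 (SE 1.19). With the pool description as a term, which sets female A mainly against male A, the values were −0.34 (SE 0.18) for Itga6 and −0.24 (SE 0.20) for Lama2. Itgb8 had 0.65 (SE 1.35) and then −0.69 (SE 0.17). Itgb1, Lamb1 and Lamc1 likewise had 0.48, 0.69 and 0.83 without the term and −0.08, −0.26 and −0.18 with it. All 6 changed sign, and no member was called either way. In that fit 0.0239% of genes, 4 of 16708, were called.

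With male A left out, female A stood against male B and male C alone, and sex and pool description became the same contrast. Then 11 members were called higher and 1 lower, against 11.8% and 10.3% of genes tested. In the fit of the pairs with sex as a term, 10 members rose and 1 fell, against 13.3% higher and 10.4% lower (23.6% in all) of genes tested, and Itga4 and Itga7 lost their calls. The values of female A and male A, the only libraries of both sexes with the same description, differed most, on the log2 scale, among the called members in Itgb8, at 8.98 RPKM in the female and 14.3 RPKM in the male.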

How the data were processed

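RNA sequencing of 4 libraries of sorted Ret-EGFP-positive cells was used. The deposited count values give reads per gene, and the submitters' processing notes name featureCounts 1.4.5 (Subread) and the build GRCm38.p2. The deposited CPM values equal the counts divided by the library's sum of gene counts, as recomputed here. The deposited RPKM values equal the CPM divided by the exon length in kilobases, per the file headers and a recomputation. Aligner, annotation release, strand setting and the treatment of multi-mapped reads were not given in the sources used here. Per the labels' protocols, 10 ng of RNA went into the SMARTer Ultra Low Input kit, with 12 cycles of PCR. The reads carry no molecular identifiers, so floors of 3 counts cover counting error only.

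Symbols came from GENCODE M21 for 40254 of 41388 genes, and all 36 members were matched. Counts were tested with edgeR 4.0.16 (quasi-likelihood F test, R 4.3.3) after TMM scaling and filtering with filterByExpr (at least 10 counts, 15 in total). P-values were adjusted by Benjamini-Hochberg over all genes tested, and each test had 2 residual degrees of freedom. An SE of a log2 fold change is |log2 fold change| divided by the square root of F, from a spread moderated across genes. Alternatives were RLE scaling, an unfiltered table, a minimum mean of 5 CPM, DESeq2 1.42.0, limma-voom (limma 3.58.1), robust empirical Bayes, a term for sex or for pool description (leaving 1 residual degree of freedom), mgcv 1.9.3 offsets for GC content and length of the longest transcript, and each library left out.

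On simulated counts, 50 genes were changed at each fold, all drawn from genes with a mean above 5 CPM. Among 15568 genes, the comparison of the pairs recovered 28%, 80%, 100% and 100% of those changed at folds of 1.5, 2, 4 and 8. It called 22 of 15368 unchanged genes. With 50 genes changed at each fold, these false calls made up more than 0.05 of all calls in the simulation. The false calls thus exceeded the share at which the adjusted threshold was set. Members below a mean of 5 CPM, such as Itga2b and Itgb5, are not covered by the shares recovered. Far fewer genes were changed in the simulation than the 42.3% called in the data. Adjusted p-values depend on that share, so recovery in the data may differ. The female comparison recovered 6%, 46%, 100% and 100% over 16708 genes and called 18 of 16508 unchanged genes. False calls of the female comparison also made up more than 0.05 of all its calls. Its simulations held no difference between the pairs, and their spread came from the fit with pool description as a term.

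The members, the pathway and marker lists and the comparison of the pairs were chosen with earlier results of these data known. Values in each library were given for members with a mean of at least 5 RPKM or a call with a log2 fold change of at least 1, and for others where their role was described. From each pathway list, the 3 most abundant genes and up to 3 called genes per direction were named. Promoter windows were read from RefSeq (GRCm38.p6) for 23 members. Protein sequences were not used here.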

Additional observations from a re-analysis of the deposited data

How the results depend on the processing

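Of the 13 members called between the pairs, 13 kept their call and direction under RLE scaling, unfiltered, above a minimum mean of 5 CPM, with DESeq2, limma-voom or robust empirical Bayes, and without male B, and 12 (all but Itga7) without female A, male A or male C. With sex as a term 11 did, with GC and length offsets 10, and with both 9 (Itga2, Itga3, Itga4 and Itga7 lost). The members called higher numbered 9 to 11 in all these fits. Those called lower numbered 2, but 3 under RLE scaling, unfiltered, with limma-voom or with robust empirical Bayes, 1 with sex as a term, 1 with offsets, 0 with both, and 1 to 3 with a library left out. The median log2 fold change of tested members, 0.57, was 1.60 above a minimum mean of 5 CPM (fewer members tested), 0.90 with sex as a term, 0.29 with offsets, and 0.59 to 0.91 with a library left out. For the female against the males, 0 members were called, and 0 to 11 higher and 0 to 1 lower with a male left out. The members with a mean of at least 1 RPKM, 14, were 20 by CPM, 11 by the lowest library and 13 to 14 with a library left out.

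Signs turned in these fits, and the cause was not tested. With pool description as a term the female values were −0.076 for Itgb1, −0.34 for Itga6, −0.69 for Itgb8, −0.24 for Lama2, −0.26 for Lamb1 and −0.18 for Lamc1. Lamb2 was −0.054 with sex as a term and −0.13 to 0.24 with a library left out. Edil3 was −0.058 with offsets and −0.076 with offsets and sex as a term, and Rap1b −0.062 and −0.080 in the same fits. Sgce was 0.0058 above a minimum mean of 5 CPM, 0.032 with sex as a term and −0.078 to 0.036 with a library left out. No paired analysis was possible because the female and male libraries share only the letter A, and the pairs share none. The female library cannot be left out of its own comparison.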

Other observations

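Several members with few counts differed within a pair more than between the pairs. Itgb6, an epithelial subunit, had 34 counts in female A and 2 in male A, against 18 in male B and 5 in male C. Itgam, an alpha subunit of myeloid cells, had 3 counts in female A and 29 in male A, against 2 in male B and 7 in male C. Itga11 was at 0.271 RPKM in female A and 0.123 RPKM in male A, against 0.112 RPKM in male B and 0.564 RPKM in male C. Itgb6 and Itga11 were not called in either comparison. Itgam had too few counts to test between the pairs and was not called between the sexes. The log2 fold change of Itga11 between the pairs was −0.86, but −1.59 without male B and 0.69 without male C.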
